A study of Mus musculus with 22 samples.

Results

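Of the 22 arrays in this series, 7 were of the colon: 4 labelled SIRT1 iKO, with replicate numbers 1 to 4, and 3 labelled Flox control, numbered 1, 3 and 4. They were chosen by their titles. All of these mice were male C57BL/6, were 24 months old, ate chow and had no treatment. Messenger RNA was measured in total RNA of the whole tissue on 1-colour Agilent mouse arrays. The other 15 arrays were of the ileum, 7 from mice of the same age and genotypes and 8 from mice 6 to 8 weeks old, and are used only beside the colon values. The labels do not spell out iKO, name the Cre driver, say which part of Sirt1 was removed, or give the segment of colon taken. The design text speaks of 3 to 4 mice per group and no label ties an array to a mouse, so p-values measure the spread between these samples.

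SIRT1 is an enzyme that removes acetyl groups from histones and other proteins and uses up NAD+ as it does so, which links its activity to the energy state of the cell. The inner lining of the colon is a single layer of epithelium folded into crypts, where stem cells at the base give rise to absorptive colonocytes, mucus-making goblet cells, hormone-making enteroendocrine cells and tuft cells. Below it lie immune cells, connective tissue, nerves and muscle, and all of them add RNA to a whole-tissue sample.

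Levels are log2 signals set against the upper quartile of each array, so that 0 is a signal equal to its 75th percentile, and differences are the iKO mean minus the flox mean of these levels. Before this scaling the 75th percentile lay between 1425 and 1751 on the colon arrays, and 70.4% to 79.7% of their spots were well above background. Arrays of the same genotype correlated at 0.984 to 0.989 and arrays of different genotype at 0.98 to 0.987. All 18 absorptive colonocyte markers and all 15 goblet cell markers on the array were well above background on every colon array. Every flox array sat at position 3 of its slide and every iKO array at position 4, so genotype and position cannot be told apart. Slides 6, 7 and 8 each held 1 array of both genotypes (flox 4 with iKO 3, flox 3 with iKO 2, flox 1 with iKO 4), and iKO 1 was alone on slide 5. On iKO 4 most pancreatic enzyme genes stood above the other arrays, and 11 of 13 acinar genes measured were highest on it. Cpa1, a carboxypeptidase, was at 3.56 there and at -6.92 to -2.20 on the other arrays. The summed signal of the pancreatic list, in units of the 75th percentile, was 65.2 on iKO 4. It was 24.4, 15.3 and 28.4 on iKO 1, 2 and 3, and 13.5 to 17.7 on flox arrays. Whether pancreatic tissue was in the samples, and its part in other differences, was not tested. Counts of calls without iKO 4 are given with the other omissions.

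Sirt1 itself was measured first, since it checks the labels. Its brightest probe lies at chr10:62855795-62855854 (build mm7, minus strand), within the gene. The probe is shown because a whole-tissue reading of a deleted gene depends on where the probe lies, and no label says whether this stretch was removed. The 60 bases were read from the array file and no part of them is marked.

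Sirt1 probe: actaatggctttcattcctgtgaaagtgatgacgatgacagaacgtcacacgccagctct

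Sirt1 was at 0.79, 0.79 and 0.76 on the flox arrays and at 0.41, 0.59, 0.65 and 0.34 on the iKO arrays. The groups did not overlap. The difference was -0.28 ± 0.11 (standard error, adjusted p = 0.623), so Sirt1 did not pass the test in the colon. It was -0.11, -0.20 and -0.45 within the 3 slides that held both genotypes. A second probe, at chr10:62838289-62838348, gave -0.13 ± 0.15 with overlapping groups. In a whole-tissue sample a deletion in some cells and a smaller loss in all of them cannot be told apart, and the same holds for cell number against RNA per cell in every result that follows. Of the other sirtuins, Sirt4 was at 0.27 to 0.66 in flox and 0.83 to 0.93 in iKO (0.42 ± 0.12, adjusted p = 0.424), while Sirt5 gave -0.21 ± 0.10 and Sirt7 0.20 ± 0.11. None of the 7 sirtuins was called, and their median difference was -0.05.

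The comparison of the colons found a short list of large differences. Of 19588 genes tested, 18 were higher in iKO and 4 lower at an adjusted p under 0.05 (limma, Benjamini-Hochberg), which is 0.0919% and 0.0204% of the genes tested. At an unadjusted p under 0.05 there were 1413 genes, where 979 would have that p if no gene differed. The median difference over all genes was -0.01 and 47.3% of genes were on the positive side. Of the 22 called features, 17 had a gene symbol and 5 were known only by the name in the array file. All 22 had groups that did not overlap, which fixes the direction within each of the 3 slides as well. They were called on these same arrays, so neither property adds support to the calls. The share of all tested genes without overlap was not counted.

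**Figure D1:**
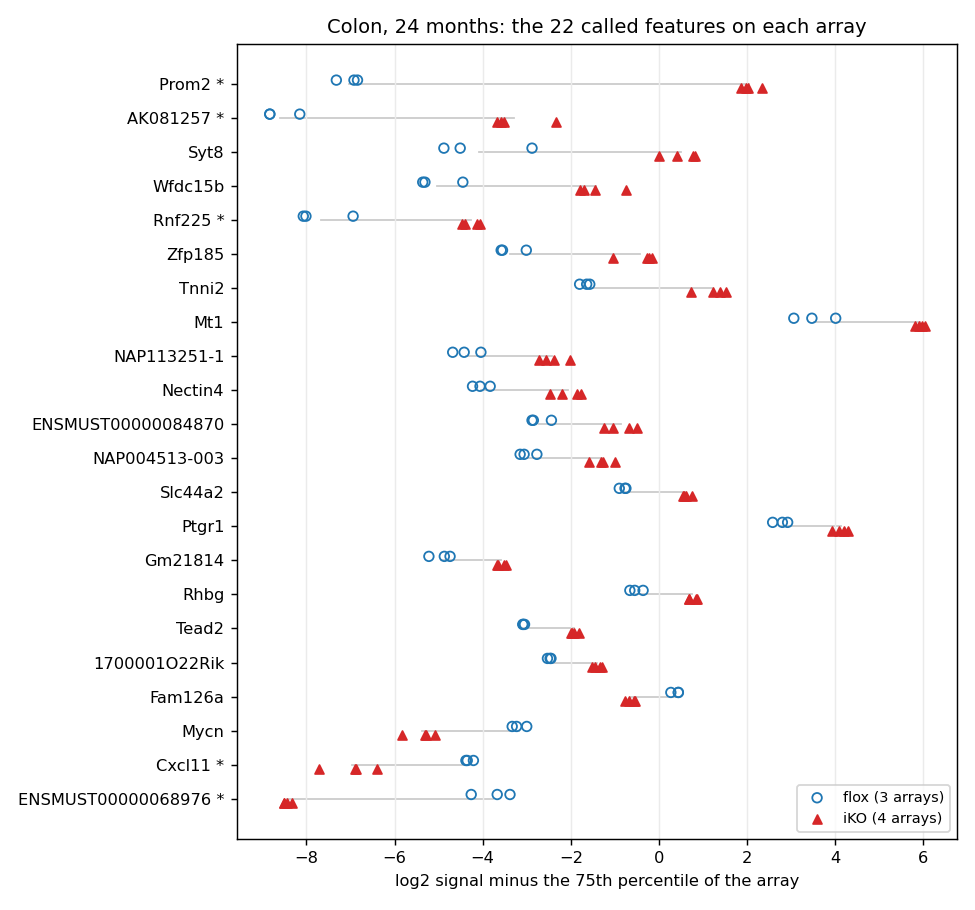
Log2 signal minus the 75th percentile of the array (horizontal axis) for the 22 called features (vertical axis, sorted by difference), with 1 open circle per flox array and 1 triangle per iKO array; grey lines join the group means and an asterisk marks features not well above background on any array of 1 genotype. For Prom2 the 3 flox arrays lie between -7.32 and -6.84 and the 4 iKO arrays between 1.87 and 2.33, and no feature shows overlap between the genotypes.

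Prom2, which encodes prominin 2, a membrane protein found on protrusions of epithelial cells, differed the most. It was at -7.32, -6.92 and -6.84 on the flox arrays, none well above background, and at 1.87, 2.33, 1.98 and 2.02 on the iKO arrays, all 4 well above it. Prom2 was thus at least 344-fold higher in the iKO colon, the bound being set by the background of the flox arrays (fitted difference 9.08 ± 0.16, adjusted p = 2.35e-06). Its difference was 8.82, 9.26 and 9.34 within the slides. The brightest probe lies at chr2:127268013-127268072 (mm7). A second probe, from another part of the transcript (chr2:127273709-127275709, minus strand, its ends apart in the genome), read -8.79, -8.15 and -7.83 in flox and -4.06, -3.53, -4.04 and -3.62 in iKO, a difference of 4.44 ± 0.26 (adjusted p = 0.00285 with each probe tested alone). Its sequence is shown since both probes point the same way.

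Prom2 second probe: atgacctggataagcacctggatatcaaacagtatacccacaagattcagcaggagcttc

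Prom1, the other prominin and a marker of crypt cells, was at 2.64 to 2.97 in flox and 2.64 to 2.95 in iKO, with a difference of -0.03 ± 0.12. It was 0.02 with slide as a factor, 0.04 without flox 3 and 0.02 without iKO 1.

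Syt8 and Tnni2 are neighbours whose probes lie 4.5 kb apart on chromosome 7 (mm7), and both were higher. Syt8, a synaptotagmin of the family that steers membrane fusion, was at -2.88, -4.51 and -4.88 in flox and 0.41, 0.77, 0.81 and 0.01 in iKO. That is a 24.1-fold difference (4.59 ± 0.47, adjusted p = 0.0246), and it was smallest within slide 8, where it was 2.89. The call of Syt8 was lost without the filter on dim genes (adjusted p = 0.0568). Tnni2, the inhibitory troponin of fast skeletal muscle, was at -1.57, -1.80 and -1.64 in flox and 1.23, 1.52, 1.39 and 0.72 in iKO, or 7.39-fold higher (2.88 ± 0.20, adjusted p = 0.00559). The next genes on both sides did not follow. Ctsd gave 0.25 ± 0.11, Lsp1 -0.07 ± 0.18 and Tnnt3, another fast muscle troponin, 0.31 ± 0.39.

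Mt1 rose while Mt2, beside it, did not. Metallothioneins are small proteins that bind zinc and copper, and the genes of Mt1 and Mt2 lie next to each other. Mt1 was at 4.01, 3.06 and 3.47 in flox and 5.91, 5.96, 6.03 and 5.81 in iKO, 5.32-fold higher (2.41 ± 0.21, adjusted p = 0.0134). A second Mt1 probe gave 3.34 ± 0.26 (adjusted p = 0.00738 with each probe tested alone). Mt2, whose probe lies 6.6 kb away, was at 5.36, 3.76 and 3.87 in flox and 4.21, 3.75, 3.58 and 2.10 in iKO, with a difference of -0.92 ± 0.58 (adjusted p = 0.857) and overlapping groups. Mt3 gave 0.05 ± 0.11. Of 14 metallothionein and zinc transporter genes, Mt1 was called higher, none was called lower, and the median was 0.00. Slc30a10, a manganese exporter of that list, was at 0.08, 1.39 and 0.32 in flox and -2.11, -1.52, -0.86 and 0.27 in iKO (-1.65 ± 0.58, adjusted p = 0.573).

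The promoters of Mt1 and Mt2 are shown because these adjacent genes differed in their readings. They come from RefSeq (GRCm38.p6, plus strand) and run from 250 bases before to 50 after the annotated start, at chr8:94178839-94179138 for Mt1 and chr8:94172368-94172667 for Mt2. Capitals mark each match to TGCNCNC on either strand, a core like that of the metal response elements known in metallothionein promoters. Matches may overlap.

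Mt1 promoter: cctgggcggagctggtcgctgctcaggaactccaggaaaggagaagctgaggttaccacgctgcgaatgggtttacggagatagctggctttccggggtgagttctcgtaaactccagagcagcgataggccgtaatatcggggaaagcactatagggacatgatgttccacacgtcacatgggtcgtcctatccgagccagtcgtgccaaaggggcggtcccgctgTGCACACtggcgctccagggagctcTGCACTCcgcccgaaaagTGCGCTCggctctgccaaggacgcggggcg

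Mt2 promoter: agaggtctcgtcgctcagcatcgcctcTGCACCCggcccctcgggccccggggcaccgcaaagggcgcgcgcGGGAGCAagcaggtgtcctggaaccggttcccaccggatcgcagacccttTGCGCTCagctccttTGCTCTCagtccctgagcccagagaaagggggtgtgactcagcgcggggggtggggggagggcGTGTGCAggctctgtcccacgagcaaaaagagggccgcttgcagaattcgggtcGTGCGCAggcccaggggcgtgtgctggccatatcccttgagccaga

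The Mt1 window held 3 matches, beginning at -23, 3 and 21 from the annotated start, and the Mt2 window 6. Whether the annotated starts are those used in the colon was not checked, so these counts do not compare the promoters. Of 32851 promoter windows of the same length, 51% held at least 1 match, and 7.1% held 3 or more. These are matches of letters only.

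Further epithelial and membrane genes were higher. Wfdc15b, a small secreted protein of the whey acidic protein family of protease inhibitors, was at -5.31, -5.36 and -4.45 in flox and -1.46, -1.69, -1.80 and -0.74 in iKO, 12.3-fold higher (3.62 ± 0.32, adjusted p = 0.0134). Nectin4, an adhesion molecule of epithelial junctions, was at -4.23, -4.06 and -3.83 in flox and -1.86, -1.77, -2.20 and -2.47 in iKO (1.96 ± 0.20, adjusted p = 0.0228). A second Nectin4 probe gave 0.70 ± 0.36 and was not called, so its size rests on the brighter probe, and the call was lost in the mean over probes (adjusted p = 0.148). Slc44a2, a transporter of choline, was among the tightest. It was at -0.75, -0.90 and -0.77 in flox and 0.54, 0.74, 0.62 and 0.56 in iKO, 2.68-fold higher (1.42 ± 0.10, adjusted p = 0.00559), with 1.41 ± 0.10 from a second probe. Rhbg, an ammonium transporter of epithelia, was at -0.55, -0.66 and -0.36 in flox and 0.68, 0.83, 0.68 and 0.86 in iKO, 2.44-fold higher (1.29 ± 0.11, adjusted p = 0.0134).

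Ptgr1, prostaglandin reductase 1, was already bright in flox, at 2.92, 2.58 and 2.80, and stood at 4.19, 4.30, 3.93 and 4.08 in iKO (1.36 ± 0.13, adjusted p = 0.0194). Tead2, a transcription factor of the Hippo pathway, was at -3.08, -3.09 and -3.05 in flox and -1.82, -1.92, -1.98 and -1.99 in iKO (1.15 ± 0.09, adjusted p = 0.0115). Dkkl1, whose probe lies 25.9 kb from that of Tead2, gave 1.00 ± 0.13 and missed the threshold (adjusted p = 0.0631). It is named for its place, after its value was seen. Zfp185, an actin-binding LIM protein, was at -3.01, -3.55 and -3.58 in flox and -0.23, -0.15, -0.28 and -1.04 in iKO, 7.77-fold higher (2.96 ± 0.25, adjusted p = 0.0134). The iKO 4 value stood apart from the other 3. Rnf225, a RING finger protein, was not well above background on any flox array and was on all 4 iKO arrays, where it read -4.41, -4.07, -4.47 and -4.13. It was at least 4.30-fold higher (fitted difference 3.40 ± 0.29, adjusted p = 0.0134). Gm21814 (1.36 ± 0.14, adjusted p = 0.0246) and 1700001O22Rik (1.09 ± 0.10, adjusted p = 0.0134) also rose. The call of Gm21814 was lost under quantile normalization (adjusted p = 0.0616) and in 5 other settings. The second probe of 1700001O22Rik gave 0.16 ± 0.16, and its call was lost in the mean over probes (adjusted p = 0.132).

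The second largest fitted difference belonged to a feature without a symbol, AK081257, a cDNA clone name, whose probe lies at chr13:91360096-91360155 (mm7, minus strand). It was not well above background in any flox array and read -3.67, -3.58, -3.51 and -2.34 in iKO, at least 8.57-fold higher (fitted difference 5.32 ± 0.36, adjusted p = 0.00559). Its probe is shown because the name alone does not identify a gene.

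AK081257 probe: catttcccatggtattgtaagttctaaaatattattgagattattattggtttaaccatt

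Fewer genes were lower. Mycn, a MYC family transcription factor linked to cell growth, was at -3.23, -3.33 and -3.0 in flox and -5.84, -5.29, -5.31 and -5.09 in iKO, a fall of 2.20 ± 0.19 on the log2 scale (adjusted p = 0.0134). Its dimmer probe gave -0.88 ± 0.26 but was not well above background on any iKO array, and the call was lost in the mean over probes (adjusted p = 0.0614). Fam126a, a membrane-associated protein of phosphoinositide synthesis, was at 0.44, 0.44 and 0.27 in flox and -0.55, -0.68, -0.57 and -0.78 in iKO (-1.03 ± 0.10, adjusted p = 0.0246). Cxcl11, an interferon-induced chemokine, was at -4.21, -4.38 and -4.35 in flox and not well above background on any iKO array, so that it was at least 4.01-fold lower (fitted difference -2.66 ± 0.29, adjusted p = 0.03). The call of Cxcl11 was lost under quantile normalization (adjusted p = 0.0785). Its neighbours Cxcl10 and Cxcl9, which respond to the same signals, gave -0.29 ± 0.16 and -0.13 ± 0.32 and were not called. St8sia5, a sialyltransferase, had the fifth smallest p among lower genes but did not pass. It was at 0.79, 1.39 and 1.22 in flox and -2.27, -2.91, -1.28 and -3.25 in iKO (-3.56 ± 0.45, adjusted p = 0.0624), and a second probe gave -4.08 ± 0.55. St8sia5 passed without iKO 3 (adjusted p = 0.0274).

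Among the called features, the largest fitted fall was at the end of the HoxA cluster. This is the row of homeobox genes whose last members are used at the tail end of the body. The feature ENSMUST00000068976, described in the array file as a cDNA from adult colon, has its probe at chr6:52229561-52229620 (mm7, plus strand). It was at -3.38, -3.67 and -4.26 in flox and -8.43, -8.50, -8.33 and -8.51 in iKO, where no array was well above background. It was at least 5.85-fold lower (fitted difference -4.67 ± 0.20, adjusted p = 0.000568). The probe is printed to place this unnamed feature.

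ENSMUST00000068976 probe: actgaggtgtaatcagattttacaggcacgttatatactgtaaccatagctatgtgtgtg

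Hoxa13, the last gene of the cluster, has its probe 7.2 kb away. It was at -2.40, -2.61 and -2.74 in flox and -4.03, -5.97, -5.71 and -6.19 in iKO, without overlap, and did not pass (-2.89 ± 0.50, adjusted p = 0.165); a second Hoxa13 probe gave -2.37 ± 0.42. Without iKO 1 Hoxa13 was at -3.37 and passed (adjusted p = 0.00521). The clone 9530018H14Rik, between Hoxa13 and Hoxa11 by probe position, gave -1.65 ± 0.24 (adjusted p = 0.0949), and Hoxa11, 24.1 kb from the called feature, 0.16 ± 0.32. Beyond the cluster Hibadh gave -0.19 ± 0.11. These neighbours were chosen by position after the called feature had been seen.

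In the HoxD cluster, which is organised in the same way, Hoxd10 was at -0.99, -0.97 and -1.20 in flox and -2.73, -2.36, -1.76 and -2.23 in iKO (-1.21 ± 0.22, adjusted p = 0.18). Hoxd11 was at -3.06, -3.31 and -3.32 in flox and -4.91, -4.82, -3.42 and -4.60 in iKO (-1.21 ± 0.36, adjusted p = 0.46). All 6 tested genes from Hoxd8 to Hoxd13 lay on the negative side, from -1.21 to -0.34, and the 7 tested Hoxb genes lay between -0.59 and -0.05. The other 6 Hoxa genes lay between -0.37 and 0.21. No Hox gene was called on all 7 arrays, though Hoxd11 was at -1.55 and passed without iKO 3 (adjusted p = 0.0442). Of 25 Hox genes tested, 19 were on the negative side, with a median of -0.31, and the whole list of 37 Hox and regional gut factors had a median of -0.20 with 12 members on the positive side. Hox genes of the far end of the clusters mark position along the hindgut, and the labels do not give the segment sampled.

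**Figure D2:**
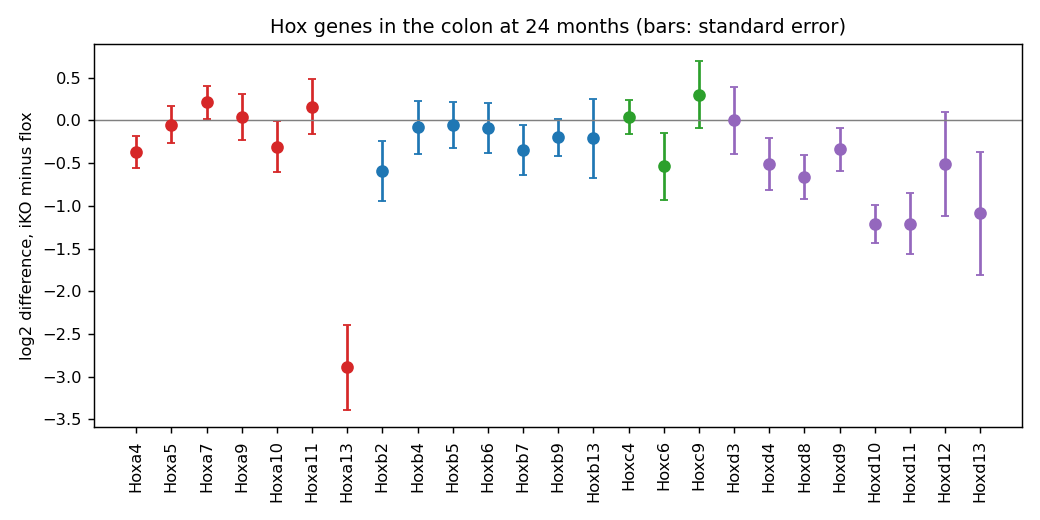
Difference in log2 signal, iKO minus flox, with its standard error (vertical axis) for each of the 25 tested Hox genes (horizontal axis), in cluster order and coloured by cluster. Hoxa13 lies lowest at -2.89, Hoxd10 and Hoxd11 are at -1.21, and the 6 other Hoxa genes lie between -0.37 and 0.21.

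The remaining 3 called features lay at antibody gene clusters. ENSMUST00000084870 is described as similar to an immunoglobulin heavy chain variable region and was at -2.85, -2.88 and -2.44 in flox and -1.04, -0.67, -1.24 and -0.50 in iKO (1.86 ± 0.21, adjusted p = 0.0406). NAP113251-1, whose probe lies 97.4 kb from it among other such segments on chromosome 12, gave 1.96 ± 0.22 (adjusted p = 0.035), and NAP004513-003, next to kappa variable segments on chromosome 6, gave 1.71 ± 0.16 (adjusted p = 0.0194). After these values were seen, all features named or described as immunoglobulin heavy, kappa or lambda were gathered, and of 73 tested, 70 were on the positive side and 3 on the negative, and 1, ENSMUST00000084870, was called. Over all genes 47.3% were on the positive side and 0.0919% were called higher. Their median difference was 1.42, and within the slides the median ran from 0.17 to 1.94. Their summed signal, in units of the 75th percentile, was 286 to 427 on flox arrays and 506 to 702 on iKO arrays. In the ileum at 24 months the median of 70 such features was -0.61. Variable segments resemble each other in sequence and a plasma cell transcript can bind several probes, so these features are not independent of each other.

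Genes of antibody-secreting cells themselves had smaller differences and were not called. Jchain, which joins antibodies for export into the gut, was at 4.63, 5.16 and 5.31 in flox and 6.29, 5.93, 5.72 and 5.63 in iKO (0.86 ± 0.22, adjusted p = 0.369). Mzb1, a chaperone of antibody secretion, gave 1.14 ± 0.38 without overlap, Pou2af1 0.84 ± 0.36 and the plasma cell receptor Tnfrsf17 0.70 ± 0.25 with overlap. Of 15 B and plasma cell genes, 12 were on the positive side with a median of 0.22 and none was called. This list had slide medians of 0.84, -1.60 and 0.33, and its median was -0.26 without flox 1 and 0.71 without flox 3. The summed signal of the list was 97.8 to 116 in flox and 122 to 169 in iKO.

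How far the called features depended on single arrays was examined by leaving out each of the 7. Prom2, AK081257, Slc44a2, Tnni2 and ENSMUST00000068976 were called in all 7 of these fits. The other 17 lost their call in at least 1, and 5 of them in all 7: Gm21814, 1700001O22Rik, Fam126a, NAP113251-1 and ENSMUST00000084870. The counts of higher and lower calls were 10 and 1 without flox 1, 6 and 4 without flox 3, 13 and 2 without flox 4, 4 and 3 without iKO 1, 4 and 1 without iKO 2, 10 and 4 without iKO 3, and 8 and 3 without iKO 4. Of the 12 called in some fits, Syt8 was called only without flox 1, Ptgr1 only without iKO 3, Rhbg only without flox 4 and Nectin4 only without iKO 4. Wfdc15b and Tead2 lost the call without flox 1, flox 3, iKO 1 or iKO 2, and Rnf225 and NAP004513-003 without these or iKO 4. Zfp185 lost it without any array but flox 1 and iKO 4, Mt1 any but flox 1 and flox 3, Mycn any but iKO 1 and iKO 4, and Cxcl11 any but iKO 3 and iKO 4. The largest adjusted p came without iKO 2 for Wfdc15b, Rnf225, Zfp185, Tead2 and Mycn (0.0953 each), for Mt1, Rhbg and 1700001O22Rik (0.0978 each), for NAP004513-003 (0.121), Gm21814 (0.122) and Fam126a (0.144). It came without flox 3 for Nectin4 (0.134), Syt8 (0.147), Cxcl11 (0.163), NAP113251-1 and ENSMUST00000084870 (0.191 each), and without iKO 1 for Ptgr1 (0.112). With slide as a fixed factor, a fit to which iKO 1 adds nothing, only Prom2 was called (adjusted p = 0.00362). The adjusted p of the other 21 ran from 0.137 to 0.508 while each kept its direction. That fit leaves few arrays to measure the spread. With slide as a random block, where arrays of a slide share a correlation (0.06), 26 features were called, the 22 among them.

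The gene lists of cell types and pathways held 875 tested genes, of which Prom2, Mt1 and Wfdc15b were called (0.343%, against 0.0919% higher and 0.0204% lower over all genes). These lists were drawn up with earlier results of these data known, and those 3 genes were among them. No other list member was called, so the groups below are described by counts and medians, to be read beside the median of -0.01 and the 47.3% of positive genes overall. List members named here were those with the smallest p in the colon, up to 4 per list. A lack of overlap between genotypes among them therefore adds no support. The median of 22 of the 46 lists changed sign when 1 array or another was left out. Only 8 of the 46 lists had medians of the same sign within all 3 slides that held both genotypes.

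Most goblet cell genes lay on the positive side. Of 15 tested, 14 were on the positive side, and the median was 0.46, with 0.48, 0.63 and 0.45 within the slides and 0.30 to 0.57 when single arrays were left out. Capn9, a calpain of mucous cells, was at 0.33, 0.09 and 0.12 in flox and 1.67, 0.95, 1.99 and 1.37 in iKO (1.32 ± 0.24, adjusted p = 0.18). Spink4, a secreted protease inhibitor, was at 5.33, 5.94 and 5.51 in flox and 6.63, 6.24, 7.08 and 6.45 in iKO (1.01 ± 0.23, adjusted p = 0.315). Neither of these genes showed overlap between genotypes. The largest differences were the least steady. Retnlb, a secreted antibacterial protein, was at 1.90, 5.39 and 1.71 in flox and 8.08, 4.73, 7.40 and 5.93 in iKO (3.53 ± 1.12, adjusted p = 0.511), so that flox 3 was above iKO 2. Ang4, a microbicidal ribonuclease, was at 1.87, 2.54 and 3.78 in flox and 7.40, 3.77, 7.39 and 5.86 in iKO (3.37 ± 0.94, adjusted p = 0.432). The summed goblet signal was 1100 to 1320 in flox and 1550 to 1980 in iKO.

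**Figure D3:**
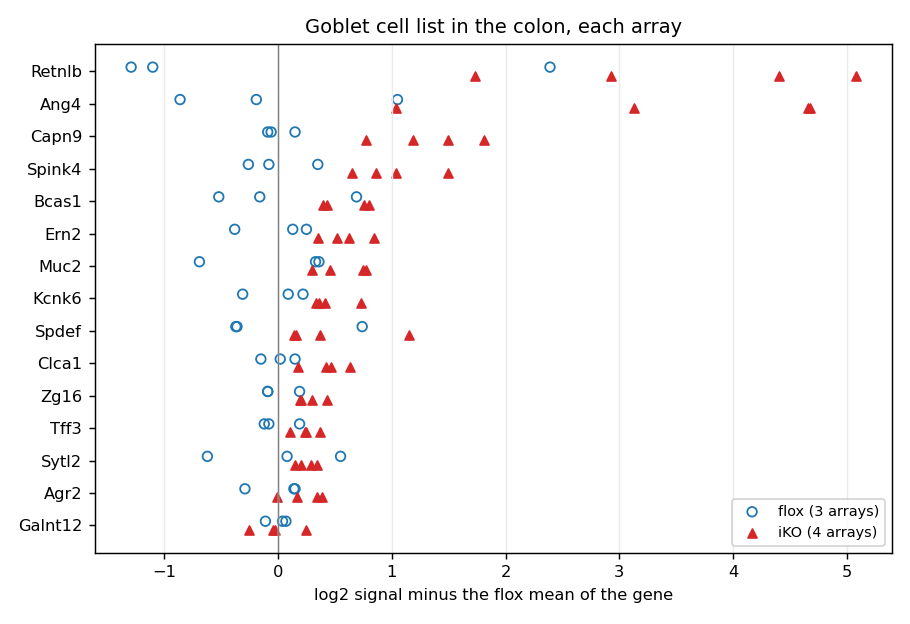
Log2 signal minus the flox mean of the same gene (horizontal axis) for the 15 goblet cell genes tested (vertical axis), with 1 open circle per flox array and 1 triangle per iKO array. For 5 of the 15 genes, Capn9 and Spink4 among them, the iKO arrays lie to the right of all flox arrays. The share of all tested genes that do so was not counted. Retnlb and Ang4 spread over the widest range.

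The factors that guide secretory cells gave a mixed picture. Bhlha15, which sets up the secretory machinery of mature goblet and plasma cells, was at -0.79, -1.46 and -1.26 in flox and 0.13, -0.63, 0.27 and 0.27 in iKO (1.18 ± 0.27, adjusted p = 0.299). The Notch ligand Dll1 was at -1.09, -0.66 and -1.09 in flox and -1.98, -1.68, -1.64 and -2.20 in iKO (-0.93 ± 0.18, adjusted p = 0.221), and the Notch target Hes5 gave -0.77 ± 0.18 without overlap. Neurog3, the start signal of enteroendocrine cells, gave 0.56 ± 0.15. Of 21 secretory lineage factors, 15 were on the positive side with a median of 0.12. Deep crypt secretory cell genes had a median of 0.47, with 5 of 8 on the positive side and slide medians of -0.07, 0.05 and 0.64. It was 0.24 without flox 4. Among them Mptx1, a pentraxin, was at 7.60, 7.22 and 7.40 in flox and 8.39, 8.20, 8.78 and 8.37 in iKO (1.03 ± 0.16, adjusted p = 0.133), while Cd44, a crypt base adhesion molecule, gave -0.63 ± 0.18.

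Medians of the other epithelial lists lay on both sides of 0. Enteroendocrine genes had a median of 0.09 with 18 of 26 on the positive side, and the colonic hormone genes Pyy and Insl5 gave 0.53 ± 0.16 and 1.07 ± 0.42. Tuft cell genes had a median of 0.32 with 14 of 16 positive, and slide medians of -0.02, -0.14 and 0.87. Stem cell genes had a median of 0.05, with 9 of 17 positive. In that list the receptor Ephb3 gave 0.44 ± 0.10, and the brightest probe of Lgr5, the receptor that marks stem cells, was at -1.15, -1.84 and -1.78 in flox and -2.35, -2.35, -2.17 and -2.55 in iKO (-0.77 ± 0.19, adjusted p = 0.349). A second Lgr5 probe was not well above background on any flox array and on 1 iKO array, so it gives no direction. Wnt target genes had a median of 0.07 (13 of 21 positive), cell cycle genes 0.11 (22 of 26) and p53 and senescence genes -0.05 (8 of 22). The cell cycle list had slide medians of 0.14, 0.41 and -0.31, and its median was -0.15 without flox 4 and 0.37 without flox 1. Its summed signal was 66.5 to 131 in flox and 76.9 to 125 in iKO. Keratins had a median of 0.01 (4 of 7 positive), with Krt23 at 1.01, 1.39 and 1.93 in flox and 3.03, 2.72, 2.63 and 2.38 in iKO (1.25 ± 0.24, adjusted p = 0.216), and claudins and tight junction genes -0.01 (10 of 21).

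Absorptive colonocyte genes had a median of -0.18, with 3 of 18 on the positive side and slide medians of 0.06, -0.35 and -0.07. The sugar phosphate and phosphate carriers of this list, Slc37a2 and Slc20a1, gave -2.03 ± 0.70 and -0.90 ± 0.29, and the retinol dehydrogenase Dhrs9 1.17 ± 0.29, none passing. Their summed signal was 1790 to 2250 in flox and 1700 to 1900 in iKO. Genes of ion and water transport had a median of -0.14 (12 of 31 positive). The water channel Aqp4 was at 0.55, 0.63 and 0.88 in flox and 1.95, 2.08, 1.27 and 1.52 in iKO (1.02 ± 0.21, adjusted p = 0.263), whereas the sulfate carrier Slc26a2 gave -0.52 ± 0.16 and the proton pump Atp12a -1.22 ± 0.50. Small intestinal enterocyte genes had a median of -0.35 with 7 of 19 positive. In that list Treh, the enzyme that splits trehalose, was at -5.38, -4.11 and -5.66 in flox and -2.50, -2.89, -2.43 and -3.05 in iKO (2.33 ± 0.37, adjusted p = 0.133, or 0.04 without flox 3), and Apob, the structural protein of chylomicrons, at 0.28, 0.65 and 0.53 in flox and -0.88, -1.42, -0.37 and -1.07 in iKO (-1.42 ± 0.25, adjusted p = 0.165). Paneth cell genes had a median of 0.73 with 7 of 9 positive, Ang4 included, and slide medians of 2.18, 0.64 and -0.12. The defensin Defa21 gave -1.95 ± 0.48 but was dim in the colon, at -4.36 on average in flox and -6.31 in iKO. Only 2 iKO arrays were well above background for it. In the flox ileum at 24 months Defa21 was at 8.88 on average.

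**Figure D4:**
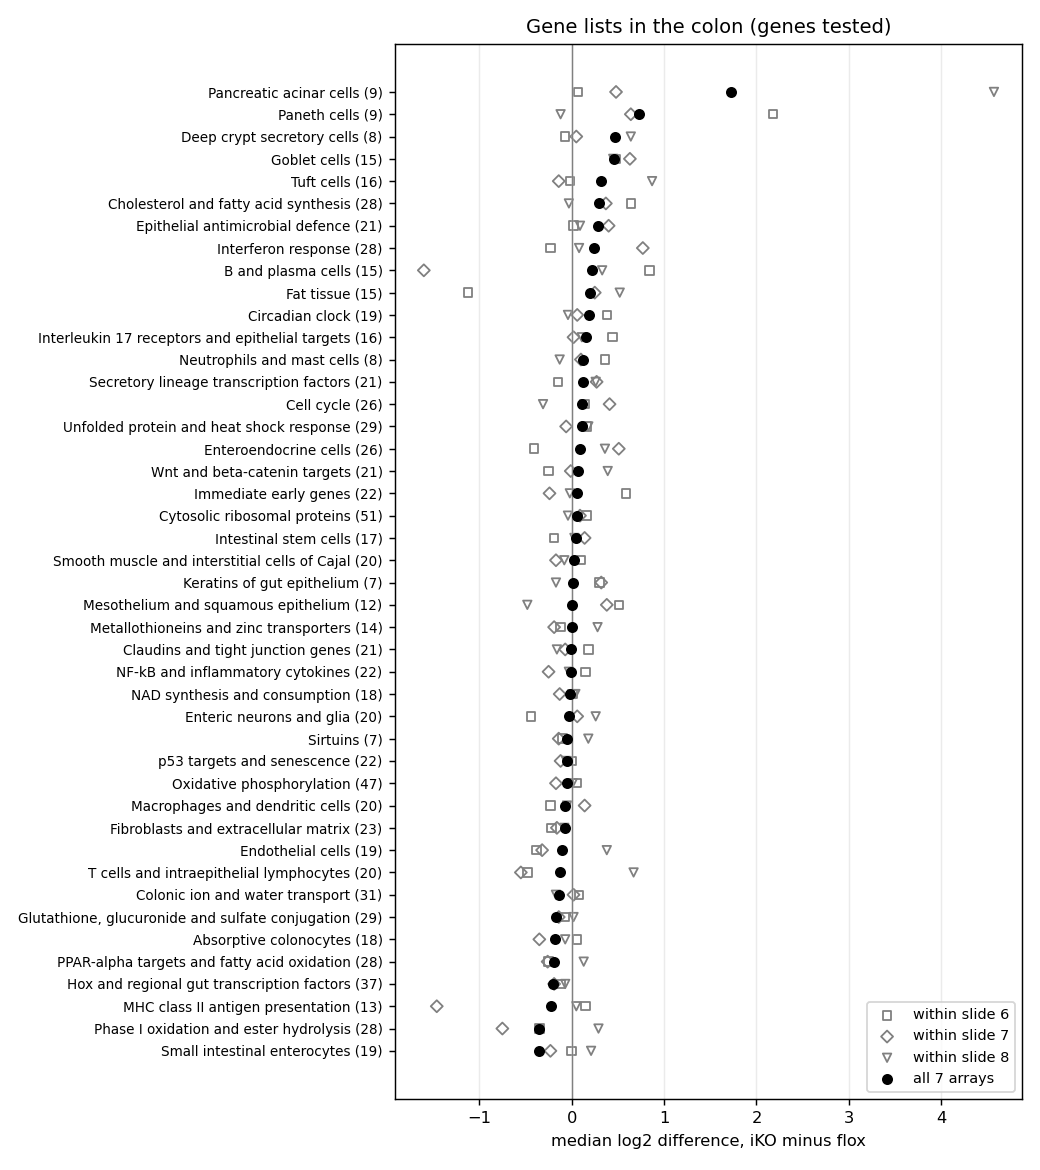
Median difference in log2 signal, iKO minus flox (horizontal axis), of each gene list with at least 7 tested genes (vertical axis, number tested in brackets); black points use all 7 arrays and open symbols the pair of arrays within slide 6, 7 or 8. The goblet cell list lies near 0.46 in all 3 slides, while the pancreatic list reaches 4.57 within slide 8 only and the B and plasma cell list reaches -1.60 within slide 7.

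Defence and immune lists were on both sides of 0. Of 21 antimicrobial defence genes 13 were positive, with a median of 0.28 that was 0.11 without iKO 2 and 0.87 without iKO 3. Wfdc15b was the member called. Genes of interleukin 17 receptors and their epithelial targets had a median of 0.16 (13 of 16 positive). Il17re, a subunit of the receptor for epithelial interleukin 17C, was at 1.89, 1.72 and 2.07 in flox and 2.62, 2.82, 2.86 and 2.68 in iKO (0.85 ± 0.12), just missing the threshold (adjusted p = 0.0909). Il17rb gave 0.77 ± 0.23, and the oxidase Duox2 and its maturation factor Duoxa2 gave 0.97 ± 0.32 and 1.28 ± 0.48. Interferon response genes had a median of 0.24 with 24 of 28 positive, but the slide medians were -0.23, 0.77 and 0.08 and the median was -0.02 without iKO 2. Mx1 and Zbp1, both induced by interferon, gave 0.93 ± 0.24 and 1.10 ± 0.41. Genes of MHC class II presentation had a median of -0.22 with 1 of 13 positive, which was 0.09 without flox 3; the protease Ctss of this list gave -0.41 ± 0.12. Inflammatory cytokine and NF-kB genes had a median of -0.01 (11 of 22 positive).

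T cell and intraepithelial lymphocyte genes had a median of -0.13 (5 of 20 positive), with slide medians of -0.48, -0.55 and 0.67. Klrd1, a receptor of killer cells, was at -2.33, -1.80 and -1.81 in flox and -3.14, -3.16, -3.19 and -2.25 in iKO (-0.95 ± 0.27, adjusted p = 0.439). Of 16 natural killer and Ly49 genes only 3 could be tested, all negative, with a median of -1.10. Eomes was well above background on no iKO array and Klra7 on 1, so both entered the test through the flox arrays alone. That filter favours a negative sign, so their direction adds no support. Klrb1c, well above background on all 7 arrays, gave -0.37 ± 0.22 with overlapping groups. Macrophage and dendritic cell genes had a median of -0.07 (5 of 20 positive) and neutrophil and mast cell genes 0.12 (7 of 8). Fibroblast and matrix genes had a median of -0.07 (6 of 23), smooth muscle 0.02 (11 of 20), endothelium -0.11 (5 of 19), enteric neurons and glia -0.03 (7 of 20), fat tissue 0.20 (11 of 15) and mesothelium and squamous epithelium 0.00 (6 of 12). The fat list had slide medians of -1.12, 0.25 and 0.52 and was at -0.11 without iKO 1. The pancreatic list had a median of 1.72 with 8 of 9 positive. Its slide medians were 0.07, 0.48 and 4.57, and it was 0.76 without iKO 4. In that list Clps, Pnliprp1 and Cel, which help digest fat, gave 1.56 ± 0.56, 2.27 ± 1.06 and 1.78 ± 1.04, none passing. Its summed signal was 13.5 to 17.7 in flox and 15.3 to 65.2 in iKO.

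Among metabolic lists, cholesterol and fatty acid synthesis had 22 of 28 genes positive and a median of 0.30. Mvd, Pmvk and Mvk, which act in a row in the mevalonate pathway, gave 0.86 ± 0.18, 0.44 ± 0.12 and 0.47 ± 0.14 (adjusted p from 0.263 to 0.452). The slide medians of this list were 0.64, 0.37 and -0.03, and its median was 0.08 without flox 4. PPAR-alpha target genes had a median of -0.19 with 4 of 28 positive and slide medians of -0.25, -0.26 and 0.13. Decr1 and Angptl4, of fat oxidation and lipase control, gave -0.44 ± 0.10 and -0.64 ± 0.22, against 0.94 ± 0.26 for Fabp1, a fatty acid carrier. Phase I oxidation and ester hydrolysis genes had a median of -0.35 with 7 of 28 positive and slide medians of -0.35, -0.75 and 0.29. The carboxylesterase Ces2c of this list gave -0.57 ± 0.18.

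Conjugation genes had a median of -0.17 (12 of 29 positive), with members far from it on both sides. The sulfotransferase Sult1a1 was at 5.40, 6.10 and 5.70 in flox and 4.07, 4.40, 4.53 and 4.95 in iKO (-1.25 ± 0.24, adjusted p = 0.213). The glutathione transferases Gsta1, Gsta2 and Gsta4 gave 1.14 ± 0.17 (adjusted p = 0.105), 1.08 ± 0.17 and 0.82 ± 0.16. Gsta1 and Gsta2 are close copies, so their probes may read each other's RNA. Genes of NAD synthesis and consumption had a median of -0.02 (9 of 18 positive), and Cd38, an enzyme that breaks down NAD+, was at 1.48, 1.79 and 1.82 in flox and 2.81, 2.60, 2.07 and 2.06 in iKO (0.69 ± 0.22, adjusted p = 0.511). Medians were -0.05 for oxidative phosphorylation (13 of 47 positive), 0.06 for cytosolic ribosomal proteins (41 of 51), 0.11 for the unfolded protein and heat shock response (19 of 29) and 0.06 for immediate early genes (15 of 22). Clock genes had a median of 0.19 (13 of 19 positive), and the repressors Cry2 and Cry1 gave 0.35 ± 0.09 and -0.54 ± 0.22. Second probes gave 0.25 ± 0.19 for Cry2 and -0.08 ± 0.29 for Cry1, so the size of the Cry1 difference rests on its brighter probe.

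The colon was then set beside the ileum of the same age and genotypes, measured on other slides and scanned on another day. In the ileum 18 of 15488 genes were higher in iKO and 8 lower (0.116% and 0.0517%). All 18 higher genes were on the positive side in the colon too, with a median of 1.23 against 1.02 in the ileum. Over all genes tested in both tissues, 59.1% had the same sign. Mt1, Prom2, Wfdc15b and Slc44a2 passed in both tissues. Of the others, Hebp2, a heme-binding protein, was at 1.37 ± 0.17 in the colon and just missed the threshold (adjusted p = 0.0624), and Ankrd22 and Psrc1 gave 1.32 ± 0.33 and 0.38 ± 0.21. Ankrd22 passed without flox 1 (adjusted p = 0.0445). Of the 8 genes lower in the ileum 7 were negative in the colon, with a median of -0.29 against -1.0, and none was called. Lpar3, a receptor for lysophosphatidic acid, was at -1.77 ± 0.16 in the ileum and -0.03 ± 0.36 in the colon. In the colon it was 0.35 without flox 3, 0.04 without iKO 1 and 0.15 without iKO 2. Its difference between the tissues was 1.75 and did not pass the limma test of genotype by tissue (adjusted p = 0.446). The features ccdc198 and Pyroxd2 gave -1.04 ± 0.55 and -0.28 ± 0.21 in the colon, and the collagen Col6a2 0.08 ± 0.15, or -0.02 without flox 1. Whether each of these differences between tissues was larger than the spread was tested over all genes, as follows.

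**Figure D5:**
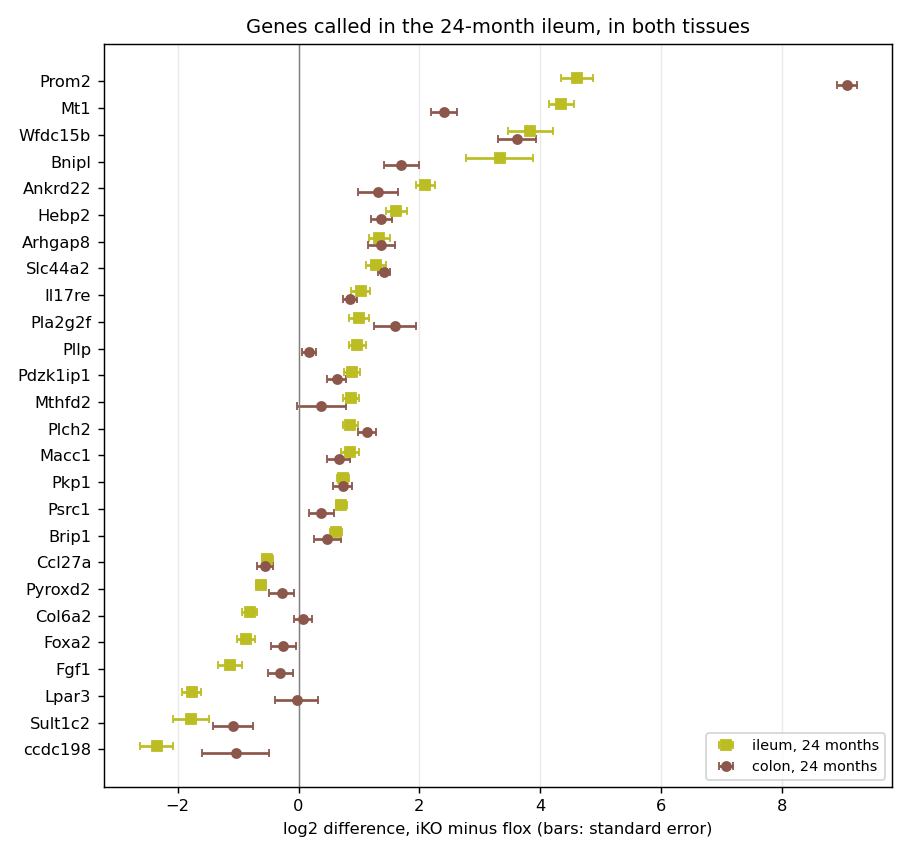
Difference in log2 signal, iKO minus flox, with its standard error (horizontal axis) for the 26 genes called in the ileum at 24 months (vertical axis), with squares for the ileum and circles for the colon. All 18 genes higher in the ileum also lie to the right of 0 in the colon, with Prom2 at 9.08 in the colon against 4.61 in the ileum. Lpar3 lies at -0.03 against -1.77, a difference that did not pass the test of genotype by tissue.

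In the test of genotype by tissue, 7 of 19640 genes passed (0.0356%), and 6 of them were called in the colon itself. Prom2 was at -4.81 on average in flox and -0.21 in iKO ileum, and its fitted difference was 4.47 ± 0.39 larger in the colon (adjusted p = 0.00121). No flox array of either tissue was well above background for it, so both fitted differences, and the one between tissues, rest on the background. Mt1 differed the other way: its rise was 4.35 ± 0.21 in the ileum and 2.41 ± 0.21 in the colon, smaller by 1.94 ± 0.25 in log2 (adjusted p = 0.0249). Mt1 was at 3.23 on average in flox and 7.58 in iKO ileum. Tnni2 gave 0.16 ± 0.21 in the ileum, where it was well above background on all 7 arrays, against 2.88 ± 0.20 in the colon (difference 2.73 ± 0.31, adjusted p = 0.00927). AK081257, Rnf225 and ENSMUST00000068976 also passed (adjusted p = 0.0249, 0.0306 and 0.00121), but none of them was well above background on any aged ileum array, so an ileum difference could not be measured. The last was ENSMUST00000075276, at 0.52 ± 0.11 in the colon without a call, and also not well above background in the aged ileum. Slc44a2 gave a difference between tissues of 0.14 ± 0.12. No comparison of size can be made for Wfdc15b, which was not well above background on any flox ileum array, or for Syt8, well above it on 1 ileum array.

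With the replicate number as a block Prom2 (adjusted p = 0.0185), Tnni2 and ENSMUST00000068976 (0.0233 each) remained called, while Mt1 (0.199), AK081257 (0.136), Rnf225 (0.11) and ENSMUST00000075276 (0.25) did not. With slide as a fixed factor none of the 7 was called, the smallest adjusted p being 0.0642 for ENSMUST00000068976 and 0.0729 for Prom2. Among the aged ileum arrays only slide 2 held both genotypes (flox 3 and iKO 2). The ileum difference in that fit thus rests on 1 pair of arrays. Prom2, Tnni2 and ENSMUST00000068976 were called in all 14 fits that left out 1 array, AK081257 in 7, Mt1 in 5, Rnf225 in 2 and ENSMUST00000075276 in 0. The largest adjusted p was 0.0942 for Mt1 (without colon iKO 4), 0.0847 for AK081257 and 0.127 for Rnf225 (both without ileum flox 4), and 0.143 for ENSMUST00000075276 (without colon flox 3).

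Of the 22 features called in the colon, 17 could be tested in the ileum, 14 of these lay in the same direction there at 24 months, and 4 were called. The share in the same direction over all genes tested in both tissues was 59.1%. Across the 15407 genes tested in both tissues the differences correlated at 0.235, a value over genes, which are not independent, from arrays that share no library but whose mice may be the same. In mice of 6 to 8 weeks, whose colon was not analysed here, the ileum differences of Prom2, Mt1, Wfdc15b and Slc44a2 were 3.61, 3.70, 2.98 and 1.09, each called. Fam126a gave -1.05 ± 0.20 in the aged ileum, missing the threshold (adjusted p = 0.0667), close to its -1.03 in the colon.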

How the data were processed

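The deposited values are spot intensities of 1-colour arrays from Agilent Feature Extraction (version 9.5 per the submitters' processing notes), already background-subtracted and detrended, and not scaled between arrays per the file headers. The deposited series matrix held the same intensities. Control spots and spots with outlier marks were left out. From these, log2 values minus the 75th percentile of each array were computed, the probe with the highest mean stood for its gene, and a gene entered the test if all arrays of either genotype were well above background. Probes carry coordinates of build mm7, and names came from RefSeq (GRCm38.p6): 22951 probes by accession, 6659 by symbol, 3109 by synonym, and 8455 kept the array's name.

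Differences were tested with limma 3.58.1 (lmFit, eBayes) in R 4.3.3 on the 7 colon arrays, without covariates, and called at a Benjamini-Hochberg adjusted p under 0.05. Each ± is the fit's standard error. The ileum was fitted on its 15 arrays and genotype by tissue on the 14 aged ones. Where no array of a genotype was well above background, a fold is a lower bound: the mean of the bright group against the higher of each dim array's own value and its lowest signal well above background. The number of arrays limits the precision.

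The rule named Sirt1, the called features (up to 15 with a symbol each way), the 5 smallest p where fewer than 5 passed, up to 4 members per list, genes called in the ileum and those passing genotype by tissue. The members and the 46 lists were chosen with earlier results of these data known. The fits were tested on simulated data. Plots were drawn with matplotlib 3.10.9 in Python 3.11.15. The alternatives were quantile normalization, normexp with offset 50, no filter, a stricter filter, mean over probes, each probe alone, trend and robust eBayes, array weights, both tissues in 1 fit, slide, replicate block and leaving out arrays.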

Additional observations from a re-analysis of the deposited data

Results flagged for a closer look

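In the 4 iKO arrays, 5 of the 95 genes examined had 1 array set apart by most of the group's range; about 1 group in 20 does so by chance. Zfp185 read -1.04 on iKO 4 against -0.28 to -0.15 on the others, AK081257 -2.34 on iKO 4 against -3.67 to -3.51, and Klrd1 -2.25 on iKO 4 against -3.19 to -3.14. Bhlha15 read -0.63 on iKO 2 against 0.13 to 0.27, and Il17rb -1.92 on iKO 1 against -2.66 to -2.56.

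The test of genotype by tissue at 24 months passed for 7 features, given as the colon minus the ileum difference in log2. Tnni2 (2.73) and Mt1 (-1.94) were well above background in both tissues. For Prom2 (4.47) the flox arrays of both tissues were not, so its value rests on the background. AK081257 (4.96), Rnf225 (3.04), ENSMUST00000075276 (1.13) and ENSMUST00000068976 (-4.67) were not well above background on any aged ileum array, so these values set a colon difference against background and do not measure a difference between the tissues.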

How the results depend on the processing

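The counts of 18 higher and 4 lower genes in the colon were 36 and 9 with normexp, 39 and 9 with trend and robust eBayes, 54 and 16 with both tissues in 1 fit, and 1 and 0 with slide as a fixed factor (1053 genes at an unadjusted p under 0.05). The stricter filter left 2 lower. Without a filter 17 were called, 15 of them among the 22; the adjusted p of the 7 lost ran from 0.0514 (Nectin4) to 0.089 (ENSMUST00000084870). Leaving out arrays gave 4 to 13 higher and 1 to 4 lower. The 7 genes of genotype by tissue were 4 without a filter, 11 with array weights, 3 with slide as a fixed factor, and 3 to 11 when arrays were left out. Replicate numbers were tried as a pairing: the replicate block gave 1 higher and 0 lower genes in the colon (limma, 1265 at an unadjusted p under 0.05) and 3 for genotype by tissue. Equal numbers had residual correlations of 0.10, -0.12 and 0.09, and 0 of 3 flox arrays matched its own number best, so the numbers were not taken to pair samples. Sirt1 kept its direction and was never called, with -0.33 to -0.23 when arrays were left out. Lpar3 turned to 0.05 with quantile normalization, 0.04 with slide, 0.15 with the replicate block, and ran from -0.32 to 0.35 without single arrays. Prom1 turned to 0.02 with slide and ran from -0.13 to 0.04 without single arrays, Col6a2 from -0.02 to 0.18, and Lgr5 read 0.39 as a mean with a probe at background, which gives no direction. All 22 called features kept their direction in every setting that tested them. Signals near background limit Prom2, Rnf225, AK081257, Cxcl11 and ENSMUST00000068976 to lower bounds.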
